A study of Mus musculus with 29 samples.

Results

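The genes described here are those that make and use glutathione, together with the peroxide, superoxide and quinone detoxifying genes that are usually read with the transcription factor NRF2. They were chosen by symbol: the cytosolic, mitochondrial and membrane glutathione transferases (Gst and Mgst), the peroxiredoxins (Prdx), the glutathione peroxidases (Gpx), thioredoxins 1 and 2 and their reductases, the superoxide dismutases (Sod), and Nfe2l2, Keap1, Nqo1, Hmox1, Gclc, Gclm, Gss, Gsr, Cat, Srxn1, G6pdx and Pgd. In the annotation used for gene names, 58 protein-coding genes fit this rule. Of these, 42 were among the 11959 genes with counts and all 42 were tested. The other 16, which include Gpx3, Gsta3, Gstm3, Gstm4 and Gstt1, were not analysed here. The rule used symbols and no measured values.

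The counts come from RNA-seq of 3T3-L1, an established mouse line of preadipocytes that become fat cells in culture, at 4 time points. Confluent preadipocytes received 10 µM KDM5-C70 (C70), an inhibitor of the KDM5 histone H3K4 demethylases, or DMSO vehicle from day -2 to day 0. All groups from day 1 on received dexamethasone, insulin, isobutylmethylxanthine and a PPARγ agonist from day 0 to day 2, and day 7 cells had then been kept in medium with insulin and dexamethasone. Days 0, 1 and 2 each had 3 vehicle and 4 C70 samples and day 7 had 4 and 4, which makes 8 groups and 29 samples. All come from 1 cell line, and nothing in the sample descriptions says whether replicates were separate cultures, so P values measure the spread between these samples only. Total counts ran from 16320275 to 24037170 per sample.

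Levels are given in CPM, the counts of a sample scaled to its effective library size (TMM). Differences are log2 fold changes with their standard error (SE) from edgeR's quasi-likelihood test, fitted to all genes and all 8 groups together, and every adjusted P below comes from that test with Benjamini-Hochberg adjustment over 11959 genes. A differentially expressed gene (DEG) is one with an adjusted P below 0.05 whose level was above 125% or below 80% of that in the other group, called the fold threshold below. Gene positions are on GRCm38. The comparisons of C70 with vehicle and of vehicle over time share the vehicle samples and are therefore not independent.

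All samples are described as adipocytes, whatever the day. The 10 adipocyte markers examined (Adipoq, Fabp4, Pparg, Cebpa, Plin1, Lpl, Cd36, Lipe, Retn and Cidec) summed to 1304 to 1427 CPM in vehicle at day 0, 5578 to 5902 at day 1, 25290.3 to 26172 at day 2 and 26460.4 to 30812 at day 7. Their sum was thus low at day 0 and high at days 2 and 7. With C70 the sum was 1487 to 1540.2 at day 0, 3516 to 3645 at day 1, 14807 to 16431 at day 2 and 28979 to 31769 at day 7. At day 0 most of the sum was Lpl, at 1169.6 to 1291 CPM in vehicle and 1377 to 1429 with C70, while Fabp4 and Pparg were DEGs with lower levels after C70 that day, at -0.41 and -0.50, and Cebpa with a higher one, at 0.39. Of these 10, 8 adipocyte markers were DEGs with lower levels after C70 at both day 1 and day 2. The 7 preadipocyte or fibroblast markers in the table (among them Dlk1, Pdgfra and Col1a1) summed at day 0 to 28904 to 31549 CPM in vehicle and 31456 to 34868 with C70, and at day 1 to 11097 to 11343 and 13161 to 14181. They summed at day 2 to 3703 to 3930.1 CPM in vehicle and 6470 to 7358 with C70, and at day 7 to 1966 to 2382 and 3990.0 to 4722. Most of the day 0 and day 1 sums came from Fn1 and Col1a1, which differed in direction at day 1. Fn1 was at 6466, 5992 and 5766 CPM in vehicle and 8456, 8893, 8188 and 8552 with C70 that day. Col1a1 was at 3131, 3510 and 3545 CPM in vehicle and 2436, 2898, 2746 and 2583 with C70, lower in every C70 sample. In bulk RNA, fewer cells of a type and less RNA per cell cannot be told apart, and the part of these marker shifts in the antioxidant gene results below was not tested. Of 6 macrophage markers only Cd68 is in the table, at 1.13 to 1.67 CPM in vehicle and 18.7 to 19.8 with C70 at day 0. It was at 1.74 to 2.01 and 13.6 to 15.1 at day 1, 1.33 to 1.75 and 6.35 to 6.94 at day 2, and overlapped at day 7, and the other 5, like the 5 endothelial markers, were not analysed here.

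Of the day 7 samples, vehicle replicate 1 stood apart. It had the highest level of its group for 35 of the 42 antioxidant genes (83.3%), against 42.8% of all genes, and the values of the antioxidant genes that were DEGs after C70 at day 7, along with some others, are given with and without it. Day 7 C70 replicate 2 was highest in its group for 26 of the 42 (61.9%), against 31% of all genes.

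NRF2, encoded by Nfe2l2, is held in the cytoplasm and marked for degradation by KEAP1, whose reactive cysteines are modified by electrophiles and oxidants. Once released, NRF2 pairs with small MAF proteins at antioxidant response elements and raises genes for glutathione synthesis, for conjugation by glutathione transferases, for the thioredoxin system and for NADPH supply. Glutathione is made from glutamate, cysteine and glycine by glutamate-cysteine ligase and glutathione synthetase, is oxidized as peroxidases and transferases use it, and is restored by glutathione reductase with NADPH. White adipocytes need NADPH for fatty acid synthesis as well, so G6pdx, Pgd and related genes belong to both programs.

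To show where the classical NRF2 motif lies close to the start sites of these genes, promoter windows were searched on both strands. The letters were TGACNNNGC, the core of the antioxidant response element, where N is any base. The windows run from 250 bases before to 50 bases after each start site and come from RefSeq on GRCm38.p6. Of the 42 genes 36 had a window, and Gclc, Gsr, Gsta4, Prdx6, Hmox1 and Sod3 had none. The letters were found in 10 of the 36 (27.8%), namely G6pdx, Gclm, Gstm5, Mgst1, Nfe2l2, Pgd, Prdx1, Sod1, Srxn1 and Txnrd1, and in 14% of 27025 genes with a window. By window the shares were 21.3% of 47 and 12.4% of 32851. The stretches of 6 of them are shown, all upstream of the start site and 5′ to 3′ along the gene, because 5 of these genes are described with their values below and Prdx1 shows an overlap with another motif, with the match in capitals.
G6pdx: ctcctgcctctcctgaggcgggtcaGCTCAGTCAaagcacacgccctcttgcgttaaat
Gclm: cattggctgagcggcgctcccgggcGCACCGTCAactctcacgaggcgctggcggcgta
Mgst1: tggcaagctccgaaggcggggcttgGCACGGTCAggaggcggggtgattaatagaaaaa
Prdx1: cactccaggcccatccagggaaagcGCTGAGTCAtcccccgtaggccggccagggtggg
Sod1: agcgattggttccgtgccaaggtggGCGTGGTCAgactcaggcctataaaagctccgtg
Txnrd1: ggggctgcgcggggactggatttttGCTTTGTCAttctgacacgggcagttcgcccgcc

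The stretches lie, on GRCm38, for G6pdx at chrX:74428904-74428962 (− strand), Gclm at chr3:122245398-122245456 (+ strand), Mgst1 at chr6:138140446-138140504 (+ strand), Prdx1 at chr4:116685441-116685499 (+ strand), Sod1 at chr16:90220681-90220739 (+ strand) and Txnrd1 at chr10:82859089-82859147 (+ strand). In all 6 the match reads on the strand opposite to the gene, so the capitals are the reverse complement of the motif. The RefSeq start used for Gclm is the start of its span in the annotation used for names, and those of the other 5 lie inside the spans, as do the whole stretches of G6pdx, Mgst1 and Txnrd1. In Prdx1 the match overlaps TGACTCA, the letters of an AP-1 site, which were in the windows of 5 of the 36 genes (13.9%) and 5.95% of all genes. The match of Txnrd1 is also 1 of only 2 in the set, with Pgd, whose core is followed by A, a longer form found in 5.56% of the 36 genes and 3.45% of all. A match is a string of letters and not evidence of binding. Among the 10 genes with the core motif in a window, 2 (G6pdx and Sod1) were DEGs on at least 1 day of C70 against vehicle. So were 14 of the 26 with no match in their windows and 5 of the 6 without a window, beside 44.5% of all genes. Sequence outside the windows was not searched, so genes without a match, Nqo1 among them, can hold the motif elsewhere. Whether these shares differ was not tested.

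The first question was how the antioxidant genes moved as vehicle-treated preadipocytes became adipocytes. Most of them changed, and more rose than fell by day 7. In vehicle, 27 of 42 were DEGs at day 1 against day 0 (13 higher and 14 lower), 36 at day 2 (21 higher and 15 lower) and 35 at day 7 (25 higher and 10 lower). These are 64.3%, 85.7% and 83.3% of the set, beside 54.1%, 65.8% and 73.5% of all genes tested. By direction, 26.2%, 33.4% and 36.7% of all genes were higher and 27.9%, 32.4% and 36.7% lower on these days. The median log2 fold change over the 42 was 0.076, 0.34 and 0.95, and over all genes it was 0.0082, 0.022 and 0.0083. By adjusted P alone 34, 39 and 40 passed (81%, 92.9% and 95.2%), beside 70.1%, 79.4% and 85.2% of all genes. The samples of the compared days did not overlap for 36, 40 and 37 of the 42 (85.7%, 95.2% and 88.1%), and for 75.3%, 82.8% and 79.7% of all genes.

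**Figure D1:**
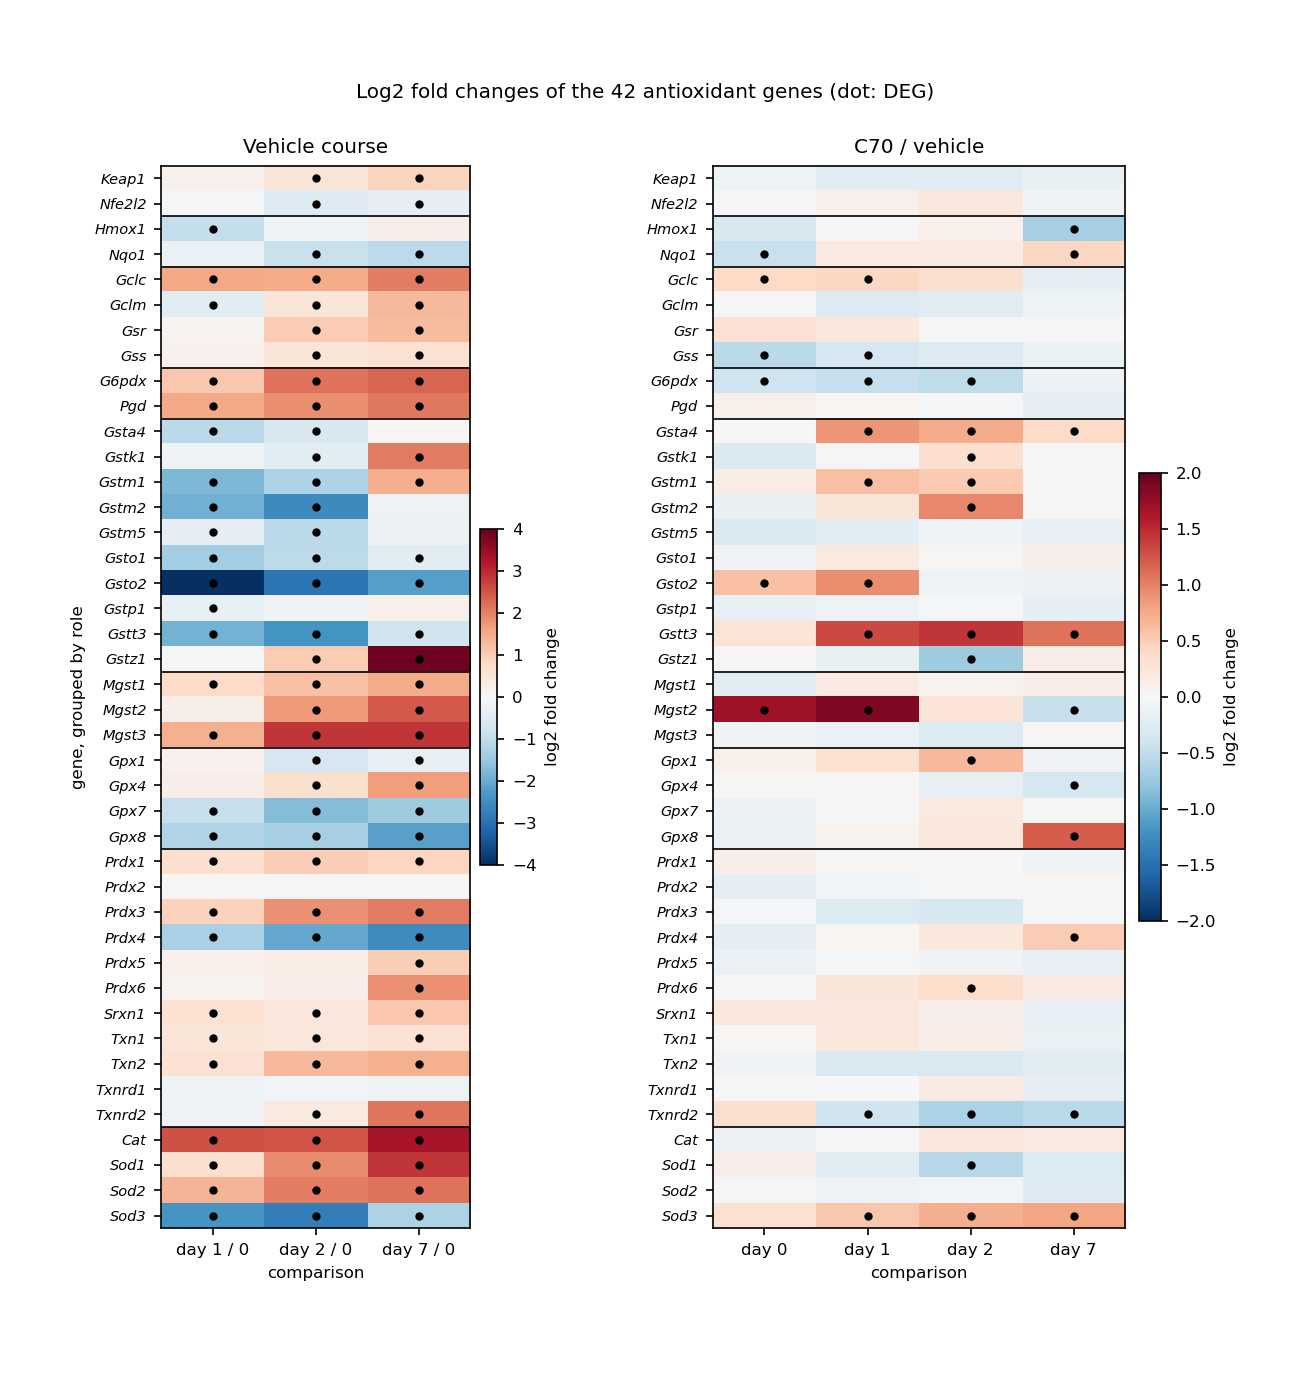
Log2 fold changes of the 42 genes (rows, grouped by role) for vehicle at days 1, 2 and 7 against day 0 (left, colour scale from -4 to 4) and for C70 against vehicle at days 0, 1, 2 and 7 (right, colour scale from -2 to 2), with a dot on each DEG. The left panel holds 98 dots and the right 38, and the strongest colours on the right are Mgst2 at days 0 and 1 and Gstt3 at days 1 and 2.

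**Figure D2:**
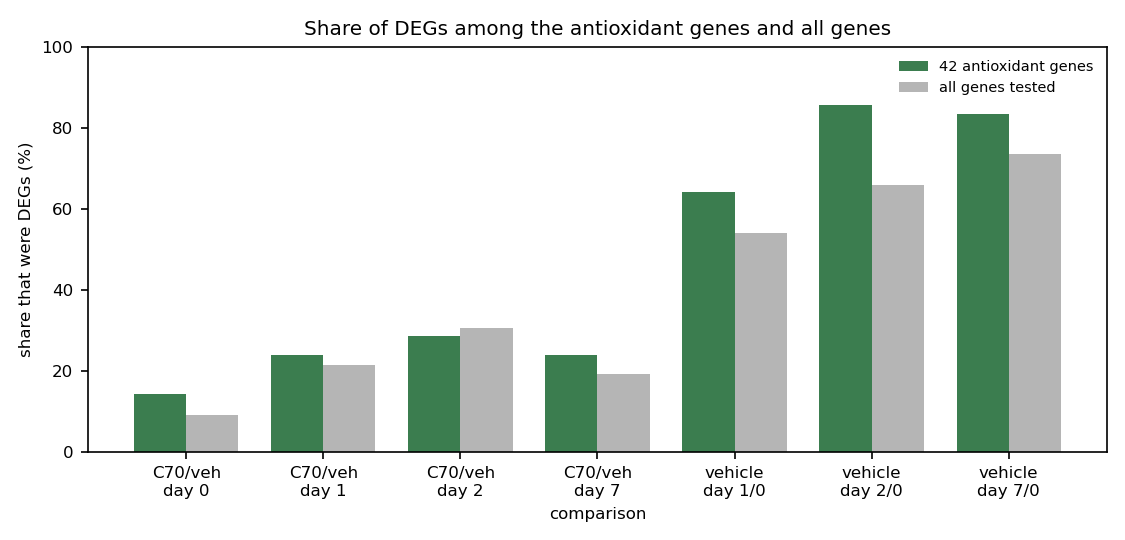
Share of DEGs in percent (vertical axis) among the 42 antioxidant genes (green) and among all 11959 genes (grey) for the 4 comparisons of C70 with vehicle and the 3 of vehicle with day 0. The C70 bars stand between 14.3% and 28.6% for the set and between 8.97% and 30.5% for all genes.

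Catalase (Cat, chr2:103453849-103485160), which breaks down hydrogen peroxide in peroxisomes, and the cytosolic superoxide dismutase Sod1 (chr16:90220754-90226329) were among the 3 genes with the largest rises. Cat went from 85.1, 86.1 and 85.5 CPM at day 0 to 479, 525 and 494 on the next day, 489.6, 497 and 472 at day 2 and 853, 861, 879 and 805 in the last samples. The samples of each later day lay far above those of day 0, with a log2 fold change at day 1 of 2.54 (SE 0.052, adjusted P = 5.53e-27), and of 3.31 (SE 0.052, adjusted P = 1.14e-30) at day 7. Sod1 went from 130.2, 123 and 118 CPM at day 0 to 468, 442 and 458 at day 2 and 1082, 839, 856 and 844 at day 7. Its log2 fold change was 0.63 (SE 0.069, adjusted P = 1.91e-09) at day 1 and 2.87 (SE 0.071, adjusted P = 5.73e-26) at day 7, or 2.77 (adjusted P = 3.68e-33) without day 7 vehicle replicate 1. The mitochondrial Sod2 rose by 2.18 (SE 0.05, adjusted P = 1.12e-26) at day 7. In the same cells the extracellular superoxide dismutase Sod3 went the other way, from 61.3, 56.2 and 53.4 CPM at day 0 to 11.1, 11.6 and 10.8 on the next day, 8.64, 7.94 and 8.34 at day 2 and 29, 18.7, 23.5 and 24.2 in the last samples, a change at day 7 of -1.26 (SE 0.085, adjusted P = 1.25e-14).

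Among the glutathione transferases most soluble enzymes fell early, while the 3 membrane-bound ones were higher from day 2 on. Of 10 soluble members 8 were DEGs with lower levels at day 1 and 8 at day 2, and by day 7 the split was 3 higher and 3 lower. Among all genes, 27.9% and then 32.4% were lower on the first 2 of these days. By the last, 36.7% of all genes were higher and 36.7% lower. The day 1 call of Gstp1 was lost under 2 of 36 other fits, and the day 2 call of Gstk1 under 1. Most of the 36 left out a sample of groups not compared here. Gstm1, a mu-class enzyme that conjugates electrophiles, was at 67.1, 64.2 and 64.7 CPM at day 0, 16.7, 20.5 and 18.7 on the next day, 27.1, 28.3 and 28.5 at day 2 and 206, 165, 172 and 175 in the last samples. All its day 1 samples thus lay below, and all its day 7 samples above, those of day 0, with log2 fold changes of -1.81 (SE 0.078, adjusted P = 4.88e-19) and 1.46 (SE 0.066, adjusted P = 4.49e-19). Gstz1 (chr12:87147165-87164723), which acts in tyrosine breakdown as maleylacetoacetate isomerase, had the largest rise of the set. It was at 42.9, 40.6 and 41.5 CPM at day 0 and 733, 565, 565 and 595 at day 7, a change of 3.88 (SE 0.082, adjusted P = 1.09e-27), or 3.79 (adjusted P = 1.64e-34) without replicate 1. Gsto2 (chr19:47865534-47886324), an omega-class enzyme that reduces dehydroascorbate, fell from 15.2, 12.5 and 14.6 CPM to 0.776, 0.892 and 0.942 at day 1 and was at 3.72, 3.27, 2.69 and 2.74 at day 7, a change of -2.19 (SE 0.12, adjusted P = 1.81e-16). The membrane enzymes Mgst1, Mgst2 and Mgst3 rose at day 7 by 1.49, 2.44 and 2.84.

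Mitochondrial and other members of the peroxiredoxin and thioredoxin system rose by day 7, while Prdx4, Gpx7 and Gpx8, peroxidases of the endoplasmic reticulum, fell. Prdx3, Txn2 and Txnrd2, the mitochondrial peroxiredoxin, thioredoxin and thioredoxin reductase, rose at day 7 by 2.08, 1.43 and 2.13 on the log2 scale. Prdx6, Srxn1, Prdx5, Prdx1 and Txn1 rose as well, by 1.82, 1.08, 1.00, 0.87 and 0.57. Whether the changes differ by compartment was not tested. Gpx4, which reduces lipid hydroperoxides, rose by 1.66 (SE 0.072, adjusted P = 1.57e-19). Prdx4 (chrX:155323918-155340754), the peroxiredoxin of the endoplasmic reticulum, fell from 96.7, 94.4 and 89.2 CPM at day 0 to 20.019, 14, 13.5 and 17.6 at day 7, a change of -2.52 (SE 0.078, adjusted P = 2.1e-23). Gpx8 (chr13:113042753-113046410), of the same compartment, fell from 79.7, 81.8 and 75.2 to 23.7, 13.9, 15.1 and 18.1, a change of -2.16 (SE 0.092, adjusted P = 8.06e-20), and the change of Gpx7 was -1.42 (SE 0.1, adjusted P = 6.85e-14). Without day 7 vehicle replicate 1, which was the highest sample of both, Prdx4 was at -2.64 (adjusted P = 5.13e-28) and Gpx8 at -2.32 (adjusted P = 3.11e-26). Prdx2 and Txnrd1, the cytosolic thioredoxin reductase, were DEGs on none of the 3 days.

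Genes of glutathione synthesis and NADPH supply were higher from day 2 on, and were mixed before. At day 1 Gclc was at 1.55 (SE 0.083, adjusted P = 9.74e-17), whereas Gclm was a DEG with a lower level, at -0.46 (SE 0.069, adjusted P = 6.29e-07), and Gsr and Gss were not DEGs. Gclc, Gclm, Gsr and Gss were all DEGs with higher levels at days 2 and 7, with log2 fold changes at day 7 of 2.06, 1.30, 1.27 and 0.60. G6pdx and Pgd, the NADPH-producing dehydrogenases of the pentose phosphate pathway, were at 2.32 and 2.10. The control genes moved in opposite directions, with Keap1 at 0.90 (SE 0.053, adjusted P = 3.56e-16) and Nfe2l2 at -0.41 (SE 0.04, adjusted P = 1.08e-10), and the NRF2 targets usually taken as its readout differed among themselves. Srxn1, which repairs overoxidized peroxiredoxins, rose by 1.08 (SE 0.05, adjusted P = 6.42e-19), whereas Nqo1 fell by 1.04 (SE 0.082, adjusted P = 5.13e-13) and Hmox1 was at 0.25 (SE 0.057, adjusted P = 0.000253), under the fold threshold.

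Levels of different genes were compared per kilobase of exon, with every annotated exon base of a gene counted once over all its transcripts. This length was 3.97 kb for Sod1 and 10.008 kb for Sod2, and can exceed that of the transcripts present. The order of genes depends on these lengths and was not tested with others. At day 0 in vehicle, Hmox1 was first by mean with 169.9 ± 8.50 CPM per kb (SD, n = 3), ahead of Gpx1 with 153 ± 9.03, and Mgst2 was last with 0.391 ± 0.0435. The ranges of mean ± SD of Hmox1 and Gpx1 overlapped. At day 7, Cat was first by mean with 325 ± 12.1 CPM per kb (SD, n = 4), followed by Mgst3 with 285 ± 56.6 and Mgst1 with 278 ± 22.9, and Gstt3 was last with 0.945 ± 0.0756. The range of mean ± SD of Mgst3 overlapped those of both Cat and Mgst1. The genes with fewest counts were Gsto2, Gstt3 and Mgst2, whose lowest samples held 17, 25 and 29 counts.

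The second question was whether early KDM5 inhibition changed these genes. Single genes changed in both directions, and the share of DEGs in the set was above that of all genes at days 0, 1 and 7 and below it at day 2. Whether the shares differ was not tested. After C70, 6 of the 42 were DEGs at day 0 (3 higher and 3 lower), 10 at day 1 (7 higher and 3 lower), 12 at day 2 (8 higher and 4 lower) and 10 at day 7 (6 higher and 4 lower). These shares of 14.3%, 23.8%, 28.6% and 23.8% compare with 8.97%, 21.4%, 30.5% and 19.1% of all genes. Of all genes, 5.89%, 13.6%, 16.9% and 14.3% were higher and 3.09%, 7.8%, 13.6% and 4.85% lower. The median log2 fold change over the 42 was -0.039, 0.024, 0.046 and -0.072 on the 4 days, and over all genes it was -0.00043, -0.006, -0.0036 and 0.0038. Without day 7 vehicle replicate 1 the day 7 median over the 42 was -0.003, with 21 genes above 0 and 21 below, and 6 genes were DEGs with higher and 3 with lower levels. By adjusted P alone 13, 25, 23 and 23 passed (31%, 59.5%, 54.8% and 54.8%), beside 19.8%, 40.7%, 50.7% and 41.1% of all genes. C70 and vehicle samples did not overlap for 24, 25, 27 and 19 of the 42 genes (57.1%, 59.5%, 64.3% and 45.2%), and for 34%, 48.2%, 57.2% and 29.3% of all.

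Of the 42 genes, 21 were DEGs on at least 1 day and 21 on none, and of all genes 44.5% were DEGs on at least 1 day. Among the 21, 12 were called only as higher with C70 and 7 only as lower, and Nqo1 and Mgst2 were called in both directions on different days. The calls were spread over time, with 10 genes called on 1 day, 5 on 2 days, 6 on 3 days (Gstt3, Gsta4, Sod3, Mgst2, G6pdx and Txnrd2) and 0 on all 4.

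**Figure D3:**
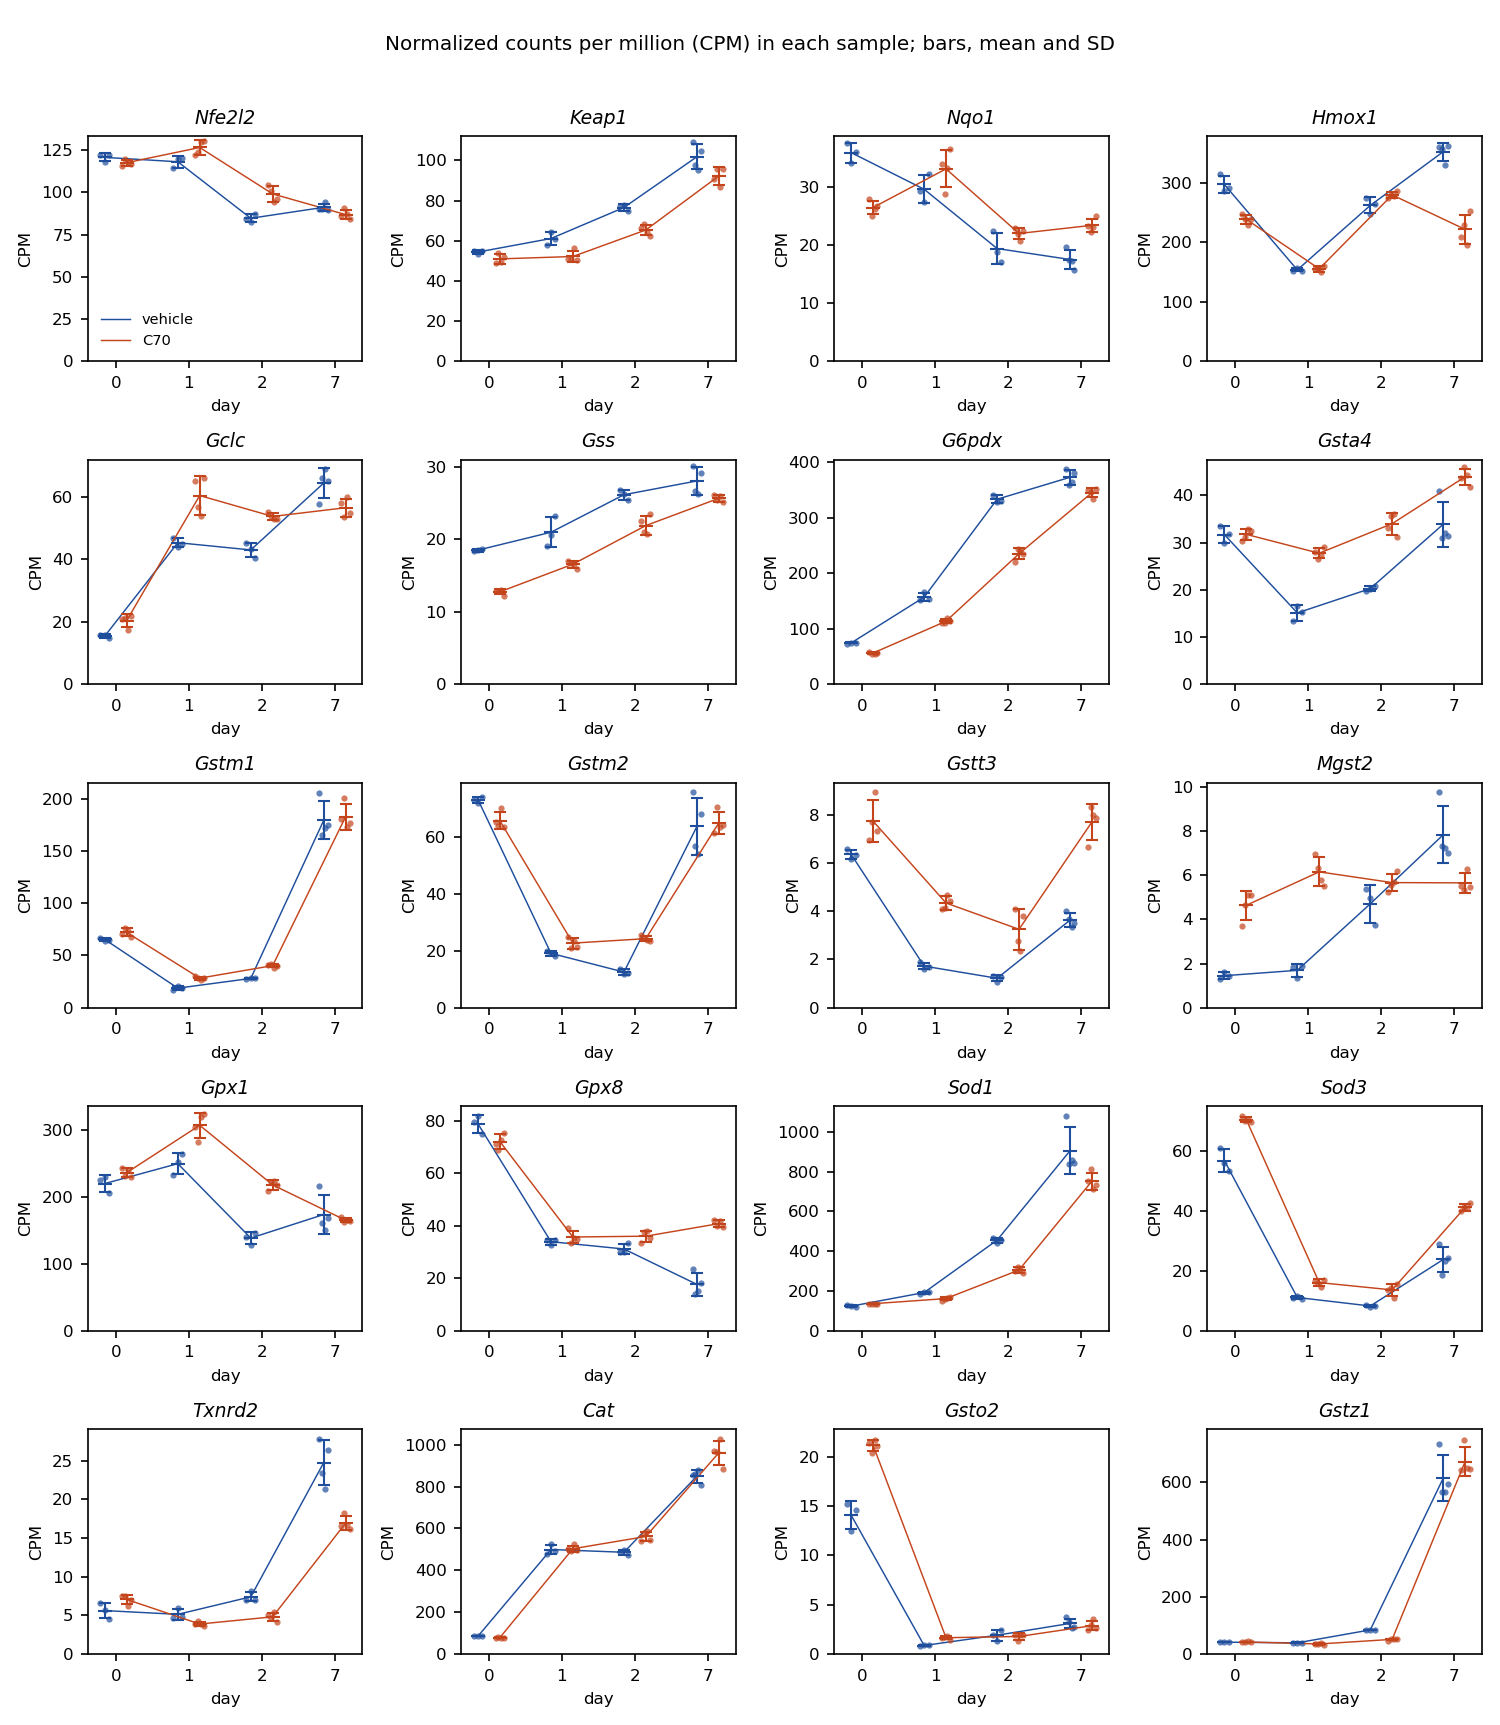
CPM (vertical axes, from 0) of 20 genes in every sample at days 0, 1, 2 and 7 (horizontal axes, evenly spaced), with vehicle in blue and C70 in red, points for samples, bars for the mean ± SD and lines joining the means. Nfe2l2 and Keap1 stay close between the treatments, Gstt3 and Sod3 lie higher with C70 from day 1 on, and Mgst2 starts higher and ends lower.

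Neither control gene was a DEG on any day. Nfe2l2 (chr2:75675513-75704641) encodes NRF2 itself. At day 0, Nfe2l2 was at 122, 118 and 122 in vehicle and 116, 120.0, 118 and 117 CPM with C70, and at day 1 at 114, 119.7 and 121 in vehicle and 122, 124, 129.8 and 131 CPM with C70. At day 2, Nfe2l2 was at 84.3, 82.5 and 87.2 in vehicle and 105, 101, 94.6 and 96.3 CPM with C70, and at day 7 at 90.2, 90.4, 94.3 and 89.7 in vehicle and 85.8, 90.5, 87.1 and 84.0 CPM with C70. C70 samples overlapped vehicle at days 0 and 7 and lay above it at days 1 and 2. The log2 fold changes were -0.038 (adjusted P = 0.569), 0.10 (adjusted P = 0.0467), 0.23 (adjusted P = 2.5e-05) and -0.07 (adjusted P = 0.144) in the order of days, so day 2 gave the largest difference and none passed the fold threshold. Keap1 (chr9:21229730-21239361), the inhibitor of NRF2, was lower than vehicle at days 1 and 2, when Nfe2l2 was above it. At day 0, Keap1 was at 54.9, 53.2 and 55.1 in vehicle and 49.0, 53.8, 49.1 and 51.8 CPM with C70, and at day 1 at 57.8, 64.4 and 61.1 in vehicle and 50.7, 51.0, 56.4 and 50.4 CPM with C70. At day 2, Keap1 was at 77.2, 77.7 and 74.7 in vehicle and 66.3, 68.4, 64.4 and 62.4 CPM with C70, and at day 7 at 109, 97.9, 95.4 and 105 in vehicle and 90.6, 95.8, 86.8 and 95.8 CPM with C70. It was below vehicle without overlap at days 1 and 2, with -0.23 (SE 0.053, adjusted P = 0.000885) and -0.23 (SE 0.052, adjusted P = 0.000496), again under the fold threshold. At day 7 the value was -0.14 (SE 0.048, adjusted P = 0.0171), and -0.10 (adjusted P = 0.0709) without vehicle replicate 1.

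Nqo1 (chr8:107388225-107403206), a quinone reductase and a standard NRF2 target, fell with C70 at day 0 and rose at day 7. At day 0, Nqo1 was at 37.6, 34.1 and 36.1 in vehicle and 27.9, 25.1, 26.3 and 26.7 CPM with C70, and at day 1 at 29.3, 27.4 and 32.2 in vehicle and 33.9, 28.9, 33.2 and 36.5 CPM with C70. At day 2, Nqo1 was at 22.4, 18.8 and 17 in vehicle and 22.9, 21.9, 20.7 and 22.5 CPM with C70, and at day 7 at 19.7, 17.4, 17.2 and 15.7 in vehicle and 23.2, 22.3, 23.2 and 24.9 CPM with C70. Every C70 sample was below every vehicle sample at day 0 and above at day 7, and the samples overlapped at days 1 and 2. The log2 fold changes were -0.44 (SE 0.078, adjusted P = 0.0001) at day 0, 0.16 (SE 0.079, adjusted P = 0.102) at day 1, 0.18 (SE 0.085, adjusted P = 0.0787) at day 2 and 0.42 (SE 0.081, adjusted P = 0.000103) at day 7, or 0.49 (adjusted P = 1.2e-05) at day 7 without vehicle replicate 1. The C70 effect differed between days 0 and 1 by 0.60 (SE 0.11, adjusted P = 0.000173).

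Hmox1 (chr8:75093621-75100589), which degrades haem and is under both NRF2 and BACH1, gave the largest fall of the set at day 7. At day 0, Hmox1 was at 314, 287 and 292 in vehicle and 248, 239, 229 and 239.7 CPM with C70, and at day 1 at 153, 157 and 152 in vehicle and 155, 156, 149.9 and 161 CPM with C70. At day 2, Hmox1 was at 274, 248 and 265 in vehicle and 275, 280.2, 278 and 286 CPM with C70, and at day 7 at 360.0, 358, 330.4 and 363 in vehicle and 209, 229, 196 and 253 CPM with C70. At days 0 and 7 all C70 samples lay below vehicle, at day 1 they overlapped, and at day 2 they lay just above. The day 7 change was -0.67 (SE 0.053, adjusted P = 1.8e-11), or -0.65 (adjusted P = 3.82e-12) without vehicle replicate 1, and the day 0 value was -0.32 (SE 0.057, adjusted P = 0.000132), just under the fold threshold. Nqo1 and Hmox1 were thus on opposite sides of vehicle at day 7.

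Glutathione synthesis did not move as a unit: Gclc was raised and Gss lowered at days 0 and 1. Gclc, the catalytic subunit of glutamate-cysteine ligase (chr9:77754535-77794485), catalyses the rate-limiting step. At day 0, Gclc was at 16, 15.6 and 14.9 in vehicle and 21.1, 21.3, 17.5 and 21.9 CPM with C70, and at day 1 at 47.0, 44.1 and 45.0 in vehicle and 65.2, 56.7, 53.8 and 66.1 CPM with C70. At day 2, Gclc was at 45.2, 43.4 and 40.5 in vehicle and 55.3, 53.9, 52.9 and 53.0 CPM with C70, and at day 7 at 57.6, 66.2, 68.8 and 65.2 in vehicle and 57.9, 53.5, 59.9 and 54.9 CPM with C70. C70 samples were above vehicle at days 0, 1 and 2 and overlapped it at day 7. The changes were 0.40 (SE 0.083, adjusted P = 0.00066) at day 0 and 0.42 (SE 0.069, adjusted P = 1.54e-05) at day 1, with 0.32 (SE 0.07, adjusted P = 0.000312) at day 2, just under the fold threshold. At day 7 the value was -0.19 (SE 0.064, adjusted P = 0.0173), and the effect differed between days 2 and 7 by -0.51 (SE 0.095, adjusted P = 0.000106).

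Gclm, the modifier subunit of the same enzyme (chr3:122245557-122270732), did not follow Gclc. At day 0, Gclm was at 21.6, 22.2 and 21 in vehicle and 21, 22, 22.9 and 20.6 CPM with C70, and at day 1 at 15.1, 16.2 and 15.7 in vehicle and 13.1, 13.3, 13.4 and 12.3 CPM with C70. At day 2, Gclm was at 28.1, 30.2 and 32.3 in vehicle and 28.4, 25.7, 23.9 and 24.7 CPM with C70, and at day 7 at 52.4, 57.6, 51.4 and 50.8 in vehicle and 48.4, 50.2, 51.1 and 48.8 CPM with C70. Its samples overlapped at days 0, 2 and 7 and were below vehicle at day 1, with values of -0.0012 (SE 0.062, adjusted P = 0.993), -0.27 (SE 0.069, adjusted P = 0.00237), -0.23 (SE 0.06, adjusted P = 0.00174) and -0.10 (SE 0.051, adjusted P = 0.139). Gss (chr2:155563181-155592810), the synthetase that adds glycine in the last step, was lower in every C70 sample on all 4 days. At day 0, Gss was at 18.3, 18.4 and 18.7 in vehicle and 12.9, 12.9, 13 and 12.2 CPM with C70, and at day 1 at 19.1, 20.6 and 23.2 in vehicle and 17, 16.7, 16.6 and 15.9 CPM with C70. At day 2, Gss was at 26.7, 26.3 and 25.4 in vehicle and 22.5, 20.9, 20.7 and 23.5 CPM with C70, and at day 7 at 30.1, 26.6, 26.3 and 29.2 in vehicle and 26.1, 25.4, 26 and 25.1 CPM with C70. It was a DEG at day 0 with -0.54 (SE 0.065, adjusted P = 3.12e-07) and at day 1 with -0.34 (SE 0.063, adjusted P = 6.73e-05), and was at -0.25 (SE 0.06, adjusted P = 0.000735) at day 2 and -0.13 (SE 0.056, adjusted P = 0.0684) at day 7. Without day 1 vehicle replicate 3, its day 1 value was -0.26 (adjusted P = 0.00254), under the fold threshold.

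Gsr (chr8:33652523-33698163), glutathione reductase, returns oxidized glutathione to its reduced form. At day 0, Gsr was at 35.9, 35.7 and 31.8 in vehicle and 44.7, 39.4, 40.5 and 43.3 CPM with C70, and at day 1 at 38.9, 38.2 and 35.1 in vehicle and 43.3, 41.8, 45.5 and 43.1 CPM with C70. At day 2, Gsr was at 68.9, 68.6 and 71.8 in vehicle and 68.7, 69.1, 69.3 and 65.1 CPM with C70, and at day 7 at 85.4, 83.0, 83.1 and 81.7 in vehicle and 81.9, 86.1, 79.6 and 79.2 CPM with C70. C70 samples were above vehicle at days 0 and 1 and overlapped it later. The values were 0.28 (SE 0.052, adjusted P = 0.000155), 0.21 (SE 0.052, adjusted P = 0.00131), -0.036 (SE 0.048, adjusted P = 0.57) and -0.028 (SE 0.044, adjusted P = 0.652), the last -0.011 (adjusted P = 0.879) without vehicle replicate 1, and none passed the fold threshold.

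Of the NADPH suppliers, G6pdx (chrX:74409483-74429194), the first enzyme of the pentose phosphate pathway, was lowered at days 0, 1 and 2 while Pgd, the third enzyme of the same branch, was not a DEG on any day. At day 0, G6pdx was at 73.4, 75.3 and 74.9 in vehicle and 58.0, 55.2, 55.4 and 56.8 CPM with C70, and at day 1 at 152, 166 and 154 in vehicle and 111, 111, 119 and 114 CPM with C70. At day 2, G6pdx was at 341, 328 and 331 in vehicle and 221, 243, 241 and 236 CPM with C70, and at day 7 at 388, 359, 364 and 380.4 in vehicle and 350.1, 346, 333 and 352 CPM with C70. No C70 sample reached a vehicle sample on any day. The log2 fold changes were -0.40 (SE 0.044, adjusted P = 4.13e-08), -0.47 (SE 0.042, adjusted P = 2.52e-10) and -0.50 (SE 0.041, adjusted P = 1.16e-11) at days 0, 1 and 2. At day 7 the value was -0.11 (SE 0.038, adjusted P = 0.0194), or -0.086 (adjusted P = 0.0603) without vehicle replicate 1, and the effect differed between days 2 and 7 by 0.39 (SE 0.056, adjusted P = 2.48e-06). Pgd was at -0.037 (SE 0.041, adjusted P = 0.477) at day 2 and -0.19 (SE 0.038, adjusted P = 0.000139) at day 7. The Ikbkg gene lies across G6pdx on the other strand, and the strand setting of the counting is not given in the sources used here.

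Every soluble glutathione transferase called after C70 was higher, except Gstz1 at day 2. Of 10 members, 1 was a DEG with a higher level at day 0 (Gsto2), 4 at day 1 (Gsta4, Gstm1, Gsto2 and Gstt3), 5 at day 2 (Gsta4, Gstk1, Gstm1, Gstm2 and Gstt3) and 2 at day 7 (Gsta4 and Gstt3). Of all genes, 5.89%, 13.6%, 16.9% and 14.3% were DEGs with higher levels at days 0, 1, 2 and 7. Gstt3 (chr10:75774115-75781414), a theta-class enzyme, changed most. At day 0, Gstt3 was at 6.57, 6.18 and 6.31 in vehicle and 6.94, 7.72, 8.94 and 7.35 CPM with C70, and at day 1 at 1.87, 1.60 and 1.70 in vehicle and 4.11, 4.13, 4.69 and 4.43 CPM with C70. At day 2, Gstt3 was at 1.30, 1.06 and 1.28 in vehicle and 4.11, 2.76, 2.33 and 3.79 CPM with C70, and at day 7 at 4.02, 3.66, 3.33 and 3.51 in vehicle and 6.65, 8.34, 7.97 and 7.86 CPM with C70. C70 samples were above vehicle on all 4 days, at 2.697 times the vehicle level at day 2. The rises were 1.33 (SE 0.16, adjusted P = 6.58e-08) at day 1, 1.43 (SE 0.18, adjusted P = 6.64e-08) at day 2 and 1.09 (SE 0.12, adjusted P = 2.25e-08) at day 7, or 1.14 (adjusted P = 1.8e-08) without day 7 vehicle replicate 1, and the day 0 value was 0.28 (SE 0.12, adjusted P = 0.0973). Levels are low, and paralogs of the theta and mu classes can share reads.

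Gsta4 (chr9:78182774-78209349) conjugates 4-hydroxynonenal, an aldehyde from lipid peroxidation. At day 0, Gsta4 was at 33.4, 29.9 and 31.8 in vehicle and 30.4, 31.1, 32.9 and 32.5 CPM with C70, and at day 1 at 13.4, 16.7 and 15.3 in vehicle and 28, 26.6, 27.4 and 29 CPM with C70. At day 2, Gsta4 was at 19.8, 20.2 and 20.8 in vehicle and 33.1, 35.7, 36.1 and 31.2 CPM with C70, and at day 7 at 41.0, 31.0, 32.1 and 31.5 in vehicle and 43.7, 46.0, 44.3 and 41.8 CPM with C70. The groups overlapped at day 0 and were apart from day 1 on, with C70 above. Its log2 fold change went from 0.00034 (SE 0.075, adjusted P = 0.999) at day 0 to 0.88 (SE 0.083, adjusted P = 7.08e-10) at day 1, 0.75 (SE 0.079, adjusted P = 2.94e-09) at day 2 and 0.38 (SE 0.069, adjusted P = 5.98e-05) at day 7, or 0.48 (adjusted P = 1.65e-08) without vehicle replicate 1. The day 1 effect exceeded that of day 0 by 0.88 (SE 0.11, adjusted P = 9.59e-07).

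In the mu class, Gstm2 (chr3:107981702-107986453) differed most from vehicle at day 2. At day 0, Gstm2 was at 73.3, 72.1 and 74.3 in vehicle and 65.2, 64.1, 70.2 and 63.7 CPM with C70, and at day 1 at 20.032, 19.3 and 18.1 in vehicle and 25, 21, 23.6 and 21.3 CPM with C70. At day 2, Gstm2 was at 13.6, 11.9 and 12.1 in vehicle and 25.4, 24.4, 23.8 and 23.5 CPM with C70, and at day 7 at 76.0, 57.0, 54.1 and 68.1 in vehicle and 61.5, 70.7, 63.5 and 64.5 CPM with C70. C70 samples lay below vehicle at day 0, above at days 1 and 2, and among vehicle at day 7. The change was 0.96 (SE 0.097, adjusted P = 1.07e-09) at day 2, larger than at day 1 by 0.71 (SE 0.13, adjusted P = 0.000215), and 0.03 (adjusted P = 0.772) at day 7, or 0.13 (adjusted P = 0.0934) without vehicle replicate 1. Gstm1 rose at days 1 and 2, from 18.6 ± 1.93 to 28.2 ± 1.34 CPM (SD, n = 3 and 4) at day 1 and from 28 ± 0.739 to 40.2 ± 1.73 CPM at day 2, by 0.60 (SE 0.078, adjusted P = 2.81e-07) and 0.53 (SE 0.073, adjusted P = 4.41e-07). Gstm5 was a DEG on no day, with values from -0.28 at day 0 to -0.08 at day 2.

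Gsto2 rose with C70 at days 0 and 1. At day 0, Gsto2 was at 15.2, 12.5 and 14.6 in vehicle and 21.4, 20.4, 21.7 and 21.1 CPM with C70, and at day 1 at 0.776, 0.892 and 0.942 in vehicle and 1.59, 1.77, 1.82 and 1.46 CPM with C70. At day 2, Gsto2 was at 1.93, 1.35 and 2.46 in vehicle and 1.92, 1.29, 1.98 and 1.95 CPM with C70, and at day 7 at 3.72, 3.27, 2.69 and 2.74 in vehicle and 2.41, 2.96, 3.51 and 2.64 CPM with C70. The C70 samples were above all vehicle samples on the first 2 time points and mixed with them on the last 2. The rises were 0.59 (SE 0.1, adjusted P = 7.46e-05) and 0.92 (SE 0.23, adjusted P = 0.0015), the second from levels near 1 CPM, and the effect changed from day 1 to day 2 by -0.998 (adjusted P = 0.0158). This change in the Gsto2 effect did not pass once single samples were left out. Gstz1 went down at day 2 only. At day 1, Gstz1 was at 40.3, 40.3 and 37.2 in vehicle and 33.9, 36.0, 38.9 and 32.4 CPM with C70, and at day 2 at 84.9, 84.2 and 84.3 in vehicle and 47.4, 53.3, 52.7 and 52.5 CPM with C70. At day 0, Gstz1 was at 42.9, 40.6 and 41.5 in vehicle and 41.2, 42.2, 44.0 and 42.1 CPM with C70, and at day 7 at 733, 565, 565 and 595 in vehicle and 642, 749, 652 and 646 CPM with C70. It was lower in every C70 sample at day 2 and overlapped vehicle on the other days, with -0.72 (SE 0.073, adjusted P = 1.44e-09) at day 2 and a value of 0.13 (SE 0.063, adjusted P = 0.0973) at day 7. Without vehicle replicate 1, where Gstz1 was highest of its group, the day 7 value was 0.23 (adjusted P = 0.000134), past the threshold on P but not on the fold. The effect differed between days 1 and 2 by -0.56 (SE 0.11, adjusted P = 0.000294) and between days 2 and 7 by 0.85 (SE 0.096, adjusted P = 5.66e-08). Gstk1, of mitochondria and peroxisomes, was a DEG at day 2 with 0.34 (SE 0.14, adjusted P = 0.0372), which was lost without vehicle replicate 3 of day 2 at 0.27 (adjusted P = 0.145).

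Among the membrane enzymes, Mgst2 (chr3:51660360-51682677), which also conjugates leukotriene A4, had the largest rise of the set at days 0 and 1. Its fitted level with C70 was 3.23 and 3.63 times that of vehicle on these days, and it was a DEG in the other direction at day 7. At day 0, Mgst2 was at 1.29, 1.61 and 1.44 in vehicle and 3.69, 4.66, 5.11 and 5.09 CPM with C70, and at day 1 at 1.83, 1.36 and 1.88 in vehicle and 6.99, 6.35, 5.80 and 5.50 CPM with C70. At day 2, Mgst2 was at 5.40, 4.99 and 3.73 in vehicle and 5.23, 5.57, 5.69 and 6.20 CPM with C70, and at day 7 at 9.78, 7.33, 7.25 and 7.02 in vehicle and 5.52, 5.32, 6.31 and 5.49 CPM with C70. At days 0 and 1 every C70 sample stood above every vehicle sample, at day 2 they overlapped, and at day 7 every C70 sample stood below. The log2 fold changes were 1.69 (SE 0.17, adjusted P = 1.37e-08), 1.86 (SE 0.16, adjusted P = 1.64e-10), 0.26 (SE 0.14, adjusted P = 0.12) and -0.47 (SE 0.12, adjusted P = 0.00301), the last -0.34 (adjusted P = 0.0253) without vehicle replicate 1. The C70 samples of day 1, at 5.50 to 6.99 CPM, were above the vehicle samples of day 2, at 3.73 to 5.40 CPM. The effect changed from day 1 to day 2 by -1.60 (SE 0.22, adjusted P = 3.34e-06) and from day 2 to day 7 by -0.73 (SE 0.19, adjusted P = 0.00318). Mgst1 and Mgst3 were DEGs on no day, Mgst1 with values from -0.21 to 0.16 and Mgst3 with -0.28 (SE 0.087, adjusted P = 0.0086) at day 2.

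Of 4 glutathione peroxidases, Gpx1 rose at day 2, Gpx8 at day 7, Gpx4 fell at day 7 and Gpx7 was a DEG on no day. Gpx1 (chr9:108338903-108340343), the abundant cytosolic and mitochondrial form, was at 141, 129 and 147 in vehicle and 209, 223, 224 and 218 CPM with C70 at day 2. Its change of 0.65 (SE 0.078, adjusted P = 2.73e-08) followed 0.30 (SE 0.076, adjusted P = 0.00219) at day 1, and at day 7 the value was -0.072 (SE 0.071, adjusted P = 0.445), or 0.055 (adjusted P = 0.419) without vehicle replicate 1. Gpx8, of the endoplasmic reticulum, gave the largest rise of the set at day 7. At day 0, Gpx8 was at 79.7, 81.8 and 75.2 in vehicle and 71.4, 69.0, 72.7 and 75.5 CPM with C70, and at day 1 at 34.7, 32.7 and 34.6 in vehicle and 39, 33.3, 35.5 and 35.2 CPM with C70. At day 2, Gpx8 was at 30.1, 30.002 and 33.5 in vehicle and 33.4, 37.7, 37.9 and 35.3 CPM with C70, and at day 7 at 23.7, 13.9, 15.1 and 18.1 in vehicle and 42.1, 39.986, 41.8 and 39.6 CPM with C70. The groups overlapped up to day 2 and were wide apart at day 7. That day's level was 2.32 times that of vehicle, a log2 fold change of 1.21 (SE 0.091, adjusted P = 5.2e-12), or 1.38 (adjusted P = 2.19e-17) without vehicle replicate 1, and it exceeded the day 2 effect by 1.00 (SE 0.13, adjusted P = 4.76e-07). At day 7 the highest vehicle sample was the replicate 1 that stood apart.

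The Gpx4 call at day 7 was lost under 5 of the 36 other fits, among them fits without single samples. Its levels were 548, 419, 405 and 409 in vehicle and 357, 379, 339.9 and 328 CPM with C70, with vehicle replicate 1 far above the other 3. C70 samples lay below vehicle, with -0.34 (SE 0.063, adjusted P = 5.89e-05), and without that replicate the value was -0.22 (adjusted P = 3.4e-05), which is under the fold threshold. Without C70 replicate 4 it was -0.31 (adjusted P = 0.000581), again under that threshold. Gpx4-ps2, a named pseudogene, can share its reads.

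Of the 11 peroxiredoxin and thioredoxin genes, 3 were DEGs after C70 on at least 1 day, beside 44.5% of all genes. Txnrd2 (chr16:18426384-18479073), the mitochondrial thioredoxin reductase, fell at days 1, 2 and 7. At day 0, Txnrd2 was at 6.57, 5.77 and 4.55 in vehicle and 7.53, 7.46, 6.21 and 7.06 CPM with C70, and at day 1 at 4.61, 5.96 and 4.85 in vehicle and 3.85, 4.23, 3.87 and 3.601 CPM with C70. At day 2, Txnrd2 was at 7.06, 8.10 and 7.06 in vehicle and 5.07, 4.72, 5.39 and 4.10 CPM with C70, and at day 7 at 27.9, 23.4, 21.4 and 26.4 in vehicle and 16.6, 18.3, 16.7 and 16.2 CPM with C70. At day 0 the samples overlapped and on the later days every C70 sample was lower. The log2 fold changes were 0.32 (SE 0.12, adjusted P = 0.0617) at day 0, -0.40 (SE 0.14, adjusted P = 0.0196) at day 1, -0.63 (SE 0.13, adjusted P = 0.000102) at day 2 and -0.55 (SE 0.089, adjusted P = 9.99e-06) at day 7, or -0.48 (adjusted P = 3.81e-05) without vehicle replicate 1. The day 1 call was lost without day 1 vehicle replicate 2, at -0.28 (adjusted P = 0.162), and without day 1 C70 replicate 4, at -0.36 (adjusted P = 0.0552). Txn2, its mitochondrial substrate, pointed the same way at -0.31, -0.31 and -0.22 at days 1, 2 and 7 (adjusted P = 0.000333, 0.000143 and 0.00365), and Prdx3 at -0.28 and -0.32 at days 1 and 2 (adjusted P = 5.13e-05 and 1.87e-06), all under the fold threshold. Without day 7 vehicle replicate 1 the day 7 value of Txn2 was -0.11 (adjusted P = 0.0278).

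Prdx4, the peroxiredoxin of the endoplasmic reticulum, rose at day 7. Of the peroxidases of that compartment described above, Gpx8 rose as well on that day, and Gpx7 was at 0.022 (SE 0.11, adjusted P = 0.893), or 0.13 (adjusted P = 0.372) without vehicle replicate 1. At day 2, Prdx4 was at 22.3, 20.8 and 24.8 in vehicle and 26.1, 25.3, 25.6 and 26.9 CPM with C70, and at day 7 at 20.019, 14, 13.5 and 17.6 in vehicle and 21.4, 22.7, 24.3 and 24.3 CPM with C70. C70 samples were above all vehicle samples on both days. The day 7 change was 0.51 (SE 0.082, adjusted P = 8.11e-06), or 0.63 (adjusted P = 1.68e-08) without vehicle replicate 1. Prdx6, with peroxidase and phospholipase activity, rose at day 2, when vehicle held 74.1 ± 1.89 CPM (SD, n = 3) and C70 94.3 ± 3.35 CPM (SD, n = 4), by 0.35 (SE 0.066, adjusted P = 5.13e-05). Prdx6-ps2 is a named pseudogene that can share its reads.

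Srxn1 and Txnrd1 are sensitive NRF2 targets in many cells. Neither was a DEG after C70. At day 0, Srxn1 was at 63.8, 59.7 and 59.7 in vehicle and 69.7, 71.4, 69.0 and 71.8 CPM with C70, and at day 1 at 86.1, 93.6 and 99.3 in vehicle and 108, 99.5, 115 and 108 CPM with C70. At day 2, Srxn1 was at 86.0, 84.0 and 82.9 in vehicle and 89.1, 91.9, 89.6 and 93.3 CPM with C70, and at day 7 at 132, 127, 132 and 125 in vehicle and 112, 117, 110.5 and 122 CPM with C70. Srxn1 (chr2:152105516-152111376) was above vehicle in every C70 sample at days 0, 1 and 2 and below it at day 7. The values were 0.21 (SE 0.05, adjusted P = 0.00297), 0.21 (SE 0.048, adjusted P = 0.000714), 0.11 (SE 0.049, adjusted P = 0.0598) and -0.16 (SE 0.044, adjusted P = 0.00394), none past the fold threshold, and the effect differed between days 2 and 7 by -0.27 (SE 0.066, adjusted P = 0.00196). Txnrd1 (chr10:82833951-82897712), whose promoter stretch is printed above, differed little from vehicle at days 0 and 1. At day 0, Txnrd1 was at 116, 119 and 107 in vehicle and 116, 117, 109 and 111 CPM with C70, and at day 1 at 97.7, 99.2 and 103 in vehicle and 102, 98.6, 101 and 98.5 CPM with C70. At day 2, Txnrd1 was at 109, 102 and 107 in vehicle and 117, 126, 118 and 113 CPM with C70, and at day 7 at 89.9, 100.2, 103 and 106 in vehicle and 91.0, 85.3, 91.7 and 84.0 CPM with C70. C70 and vehicle overlapped except at day 2, when C70 was above. The 95% intervals of its log2 fold change ran from -0.11 to 0.087 at day 0, -0.10 to 0.10 at day 1, 0.064 to 0.26 at day 2 and -0.27 to -0.087 at day 7, inside the fold threshold on every day.

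Of the superoxide dismutases and catalase, Sod3 was raised from day 1 on, Sod1 was lowered at day 2, and Sod2 and Cat were DEGs on no day. Sod3 (chr5:52363791-52371418), secreted and bound to the cell surface, was above vehicle in every C70 sample on all 4 days. At day 0, Sod3 was at 61.3, 56.2 and 53.4 in vehicle and 72.0, 70.2, 70.7 and 69.7 CPM with C70, and at day 1 at 11.1, 11.6 and 10.8 in vehicle and 16.7, 16.1, 14.6 and 17.1 CPM with C70. At day 2, Sod3 was at 8.64, 7.94 and 8.34 in vehicle and 13.8, 14.2, 11.1 and 15.7 CPM with C70, and at day 7 at 29, 18.7, 23.5 and 24.2 in vehicle and 40.042, 41.4, 40.9 and 42.8 CPM with C70. Its differences were 0.31 (SE 0.079, adjusted P = 0.00535) at day 0, under the fold threshold, and then 0.54 (SE 0.1, adjusted P = 0.000129), 0.73 (SE 0.11, adjusted P = 2.59e-06) and 0.79 (SE 0.083, adjusted P = 4.08e-09). Without day 7 vehicle replicate 1 the last was 0.90 (adjusted P = 3.81e-12).

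Sod1 was lowered at day 2. At day 0, Sod1 was at 130.2, 123 and 118 in vehicle and 137, 135, 137 and 136 CPM with C70, and at day 1 at 187, 197 and 194 in vehicle and 151, 162, 166 and 169 CPM with C70. At day 2, Sod1 was at 468, 442 and 458 in vehicle and 298, 319.6, 313 and 292 CPM with C70, and at day 7 at 1082, 839, 856 and 844 in vehicle and 751, 813, 713 and 734 CPM with C70. C70 samples were above vehicle at day 0 and below it on the 3 later days, with 0.14 (SE 0.065, adjusted P = 0.15), -0.25 (SE 0.064, adjusted P = 0.0027), -0.58 (SE 0.063, adjusted P = 5.18e-09) and -0.27 (SE 0.058, adjusted P = 0.000461). Sod1 was far higher in day 7 vehicle replicate 1 than in the other 3, and without it the day 7 value was -0.16 (adjusted P = 0.00151). Only the day 2 value passed both thresholds, and it was beyond the day 1 effect by -0.33 (SE 0.09, adjusted P = 0.00881). Cat differed less. At day 0, Cat was at 85.1, 86.1 and 85.5 in vehicle and 77.9, 79.5, 78.9 and 78.9 CPM with C70, and at day 1 at 479, 525 and 494 in vehicle and 501, 491, 525 and 495 CPM with C70. At day 2, Cat was at 489.6, 497 and 472 in vehicle and 538, 576, 586 and 546 CPM with C70, and at day 7 at 853, 861, 879 and 805 in vehicle and 969.7, 965, 1026 and 884 CPM with C70. C70 samples were below vehicle at day 0, overlapped at day 1 and were above at days 2 and 7, with -0.12 (SE 0.048, adjusted P = 0.081), 0.01 (SE 0.045, adjusted P = 0.88), 0.21 (SE 0.046, adjusted P = 0.000313) and 0.18 (SE 0.042, adjusted P = 0.000998), none past the fold threshold. Sod2 had its largest difference, of -0.26 (SE 0.042, adjusted P = 1.24e-05), at day 7.

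The 21 genes called on no day included Nfe2l2, Keap1, Gclm, Gsr, Srxn1, Txnrd1, Cat, Pgd, Prdx1, Mgst1 and Gstp1, while Nqo1, Hmox1, Gclc and G6pdx were called on at least 1 day. A test of the change in C70 effect from 1 time point to the next was passed, at an adjusted P value under 0.05, by 12 of the 42 genes from day 0 to day 1, by 8 from day 1 to day 2 and by 18 from day 2 to day 7. Leaving out 1 sample gave 9 to 19 genes for the first of these intervals, the 19 without day 7 vehicle replicate 1. With only the groups compared in the fit, 22 passed for the first and 13 for the second interval, and 20 for the first with sample quality weights. The 12, 8 and 18 are set beside 19.9%, 19.8% and 30.3% of all genes for the same 3 contrasts. Genes whose DEG calls at days 1 or 2 were followed by a different effect at day 7 included Gpx1 by -0.73 (SE 0.11, adjusted P = 3.19e-06), Gstm1 by -0.50 (SE 0.093, adjusted P = 0.000109) and Gstm2 by -0.93 (SE 0.12, adjusted P = 5.38e-07).

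Other genes of the pathway were read from 3 further lists. Of 9 genes that control NRF2, Maff was a DEG with a higher level at day 0, Bach1 and Maff were higher at day 1, Bach1 was higher and Maff lower at day 2, and Maff and Mafk were lower at day 7, against the percentages of all genes given above. The median log2 fold change of the 9 was 0.013, 0.054, -0.027 and -0.057 in the order of days (-0.09 at day 7 without vehicle replicate 1), beside the medians of all genes given above. Bach1, a repressor that competes with NRF2 for the same elements, was at 61.0, 58.4 and 56.2 in vehicle and 83.8, 79.2, 83.3 and 77.9 CPM with C70 at day 2. The groups did not overlap, and the change was 0.47 (SE 0.08, adjusted P = 1.16e-05) after 0.34 (SE 0.077, adjusted P = 0.000674) at day 1. Maff, a small MAF partner, was at 35.8, 39.1, 36.8 and 41.8 in vehicle and 24.5, 27.3, 22.5 and 25.7 CPM with C70 at day 7, where C70 was lower in every sample, with -0.62 (SE 0.078, adjusted P = 1.49e-07). Mafk, another small MAF, changed by -0.40 (SE 0.073, adjusted P = 5.01e-05) on that day.

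Of 17 further NRF2 target genes in the table, 2 were DEGs at day 0 (both higher), 8 at day 1 (5 higher and 3 lower), 9 at day 2 (3 higher and 6 lower) and 3 at day 7 (1 higher and 2 lower), where all genes were at 8.97%, 21.4%, 30.5% and 19.1%. Their median log2 fold change was 0.095, 0.20, 0.031 and 0.051. Without day 7 vehicle replicate 1 the day 7 count was 2 higher (Osgin1 and Blvrb) and 1 lower (Tkt), with Blvrb, a biliverdin reductase, at 0.36 (adjusted P = 1.15e-05). Of the lower ones at days 1 and 2, Tkt, Taldo1 and Me1 are described. Tkt, the transketolase of the pentose phosphate pathway, was at 762, 800.3 and 779 in vehicle and 341, 388, 352 and 327 CPM with C70 at day 2. By day 7 it was at 1350.2, 1200.1, 1203 and 1302 in vehicle and 883, 912, 848 and 867 CPM with C70. C70 was lower in every sample on both days, with -0.41 (SE 0.052, adjusted P = 1.37e-07) at day 1, -1.15 (SE 0.051, adjusted P = 1.08e-17) at day 2 and -0.53 (SE 0.047, adjusted P = 1.88e-10) at day 7. Taldo1, the transaldolase, was at -0.70 (SE 0.07, adjusted P = 1.88e-09), -0.79 (SE 0.068, adjusted P = 4.33e-11) and -0.38 (SE 0.064, adjusted P = 1.37e-05) on these days. Its day 7 value without vehicle replicate 1 was -0.27 (adjusted P = 6.81e-06), under the fold threshold. Me1, the cytosolic malic enzyme, held 162 ± 5.19 CPM (SD, n = 3) in vehicle and 85.6 ± 3.59 CPM (SD, n = 4) with C70 at day 2, a change of -0.92 (SE 0.048, adjusted P = 7.07e-16), after -0.50 (SE 0.055, adjusted P = 1.36e-08) at day 1. The summed adipocyte markers were lower with C70 on the same 2 days by the values given above, and their part in these falls was not tested.

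Among those raised, Fth1, the ferritin heavy chain, was at 6032, 6281 and 6595 in vehicle and 8843, 9088, 8929 and 8872 CPM with C70 at day 1. It was above vehicle in every C70 sample and changed by 0.50 (SE 0.072, adjusted P = 1.31e-06) at day 1 and 0.60 (SE 0.072, adjusted P = 3.61e-08) at day 2. Ephx1, microsomal epoxide hydrolase, changed by 0.70 (SE 0.061, adjusted P = 1.25e-10) and 0.54 (SE 0.061, adjusted P = 1.18e-08), and Abcc4, an efflux pump, by 0.62 (SE 0.072, adjusted P = 2.05e-08) at day 2. Osgin1, an oxidative stress induced growth inhibitor, was a DEG in opposite directions on the last 2 time points, with -0.39 (SE 0.12, adjusted P = 0.00742) at day 2 and 0.44 (SE 0.085, adjusted P = 0.000105) at day 7, and its effect differed between them by 0.83 (SE 0.15, adjusted P = 5.61e-05). Slc7a11, the cystine importer that feeds glutathione synthesis, was at 8.70, 7.74 and 9.24 in vehicle and 15.1, 16.1, 15.5 and 16.3 CPM with C70 at day 0. At day 1 it was near the limit of detection in all 7 samples, at 0.137, 0.0939 and 0 in vehicle and 0.257, 0.443, 0.586 and 0.243 CPM with C70, and no fold is given there. At day 2 the levels were 6.12, 5.48 and 7.01 in vehicle and 4.06, 3.49, 3.29 and 3.94 CPM with C70. C70 was above vehicle at day 0, with 0.88 (SE 0.16, adjusted P = 0.000184), and below it at day 2, with -0.74 (SE 0.2, adjusted P = 0.00264).

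**Figure D4:**
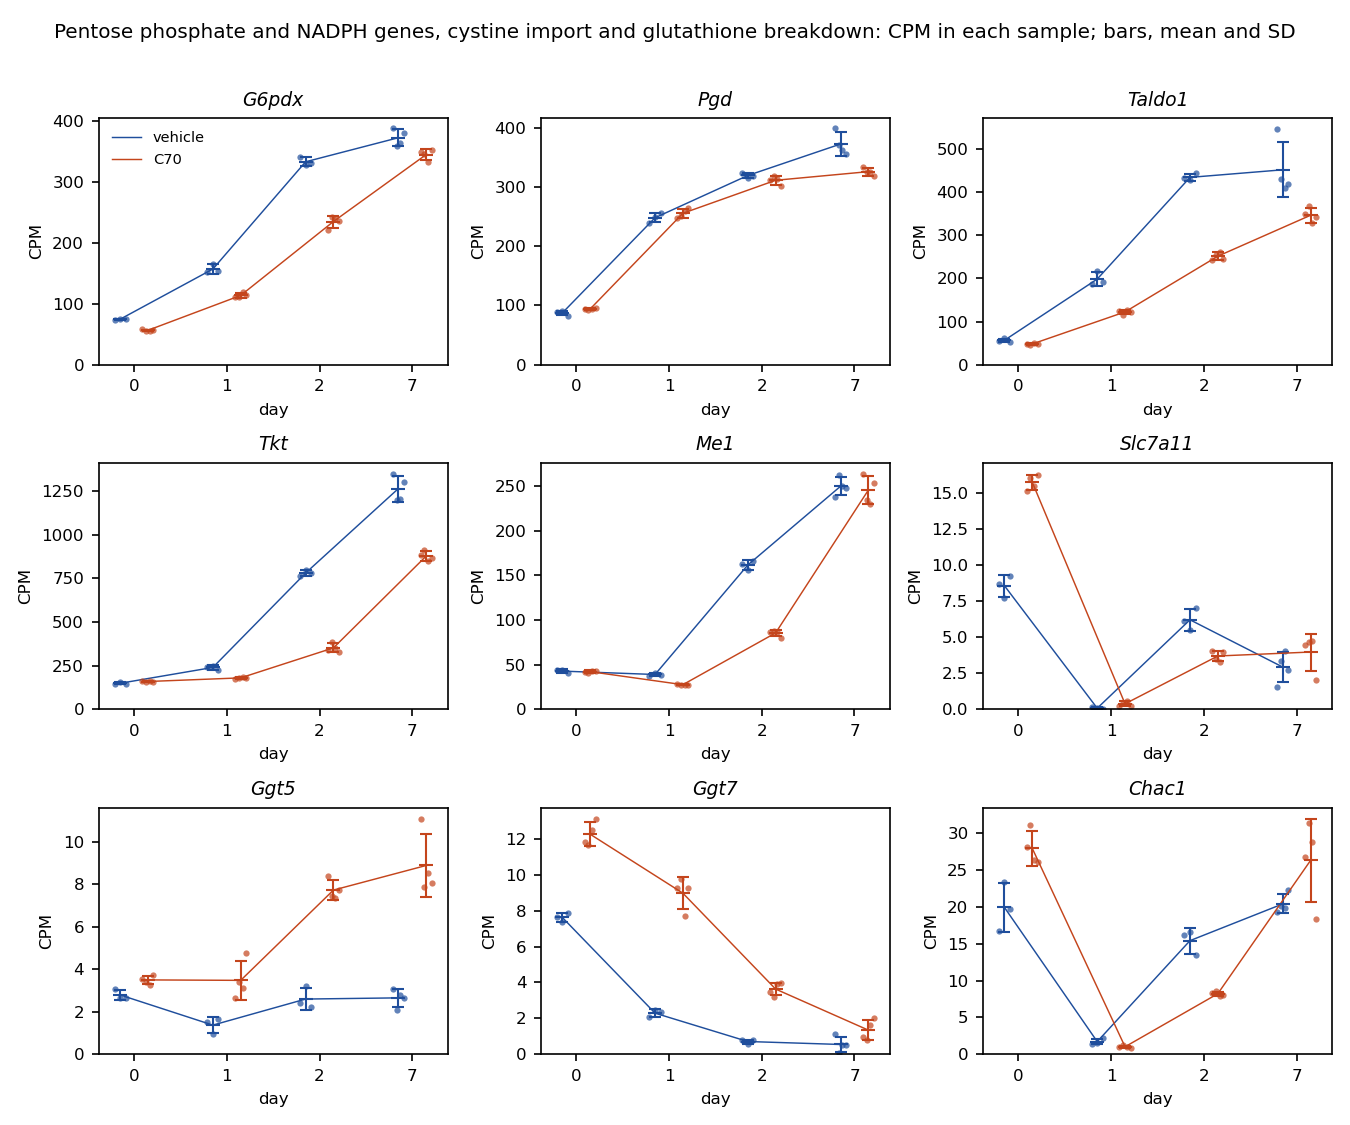
CPM (vertical axes, from 0) of 9 genes of the pentose phosphate pathway, NADPH supply, cystine import and glutathione breakdown in every sample at days 0, 1, 2 and 7 (horizontal axes, evenly spaced), with vehicle in blue, C70 in red, bars for the mean ± SD and lines joining the means. G6pdx, Taldo1, Tkt and Me1 lie lower with C70 at days 1 and 2 and Pgd does not, and Ggt5 and Ggt7 lie higher with C70.

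Of 31 other glutathione and thiol genes in the table, 3 were DEGs at day 0 (all higher), 12 at day 1 (9 higher and 3 lower), 14 at day 2 (9 higher and 5 lower) and 12 at day 7 (11 higher and 1 lower), beside the same 8.97%, 21.4%, 30.5% and 19.1% of all genes. Their median log2 fold change was 0.027, 0.026, 0.0021 and 0.054, and without day 7 vehicle replicate 1 the last was 0.13, with 10 DEGs higher and 1 lower. Both gamma-glutamyl transferases tested rose, which belong to the family that cleaves glutathione conjugates outside the cell. Ggt7 was at 2.05, 2.44 and 2.36 in vehicle and 9.25, 9.75, 7.68 and 9.25 CPM with C70 at day 1. It was at 0.765, 0.573 and 0.767 in vehicle and 3.47, 3.21, 3.89 and 3.94 CPM with C70 at day 2. The changes were 1.98 (SE 0.19, adjusted P = 1e-09) and 2.37 (SE 0.27, adjusted P = 1.44e-08). No sample of the groups overlapped on these days. Ggt5 was at 2.38, 3.19 and 2.20 in vehicle and 8.38, 7.42, 7.36 and 7.74 CPM with C70 at day 2. It was at 3.08, 2.09, 2.79 and 2.63 in vehicle and 11.1, 7.87, 8.51 and 8.07 CPM with C70 at day 7. The changes were 1.56 (SE 0.17, adjusted P = 4.01e-09) and 1.75 (SE 0.16, adjusted P = 1.98e-10). For Ggt5 the groups were apart on both days, and for Ggt7 they overlapped at day 7.

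Chac1, which degrades glutathione inside the cell, was higher at day 0, lower at days 1 and 2 and higher at day 7. It was at 16.7, 23.4 and 19.7 in vehicle and 28.2, 31.2, 26.4 and 26.1 CPM with C70 at day 0. At day 2 it was at 16.2, 16.6 and 13.4 in vehicle and 8.27, 8.55, 7.96 and 8.04 CPM with C70. C70 samples were above vehicle on the first and below it on the second of these days, with changes of 0.49 (SE 0.12, adjusted P = 0.00277) and -0.91 (SE 0.14, adjusted P = 1.75e-06). The day 1 value was -0.76 (SE 0.31, adjusted P = 0.0467), and that of day 7, where the groups overlapped, was 0.36 (SE 0.11, adjusted P = 0.00958). Ltc4s, which makes leukotriene C4 from glutathione and belongs to the same protein family as Mgst2, was at 6.97, 5.98 and 5.29 in vehicle and 15.8, 13.2, 15.1 and 14.6 CPM with C70 at day 0. It was at 8.68, 8.47 and 7.52 in vehicle and 17.3, 19.2, 19.4 and 18.9 CPM with C70 at day 2. Its C70 samples were above vehicle on both days, by 1.26 (SE 0.12, adjusted P = 5.76e-09) and 1.18 (SE 0.12, adjusted P = 6.66e-10), and the day 7 value was -0.029 (SE 0.085, adjusted P = 0.814), or 0.10 (adjusted P = 0.23) without vehicle replicate 1. Ptges, a prostaglandin E synthase of that family, rose at day 7 by 0.93 (SE 0.058, adjusted P = 1.2e-13). The lowest values at day 2 after Chac1 were those of the methionine sulfoxide reductases Msrb2 and Msra, with -0.84 (SE 0.3, adjusted P = 0.0213) and -0.69 (SE 0.12, adjusted P = 1.79e-05). Levels of Msrb2 were low that day, at 1.30, 1.35 and 1.84 in vehicle and 0.640, 0.844, 0.718 and 1.08 CPM with C70. At day 7 Msrb2 was on the other side of vehicle, at 0.63 (adjusted P = 0.00947), or 0.66 (adjusted P = 0.00951) without vehicle replicate 1.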

How the data were processed

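RNA was isolated from 3T3-L1 cells and sequenced from strand-specific NuGEN Universal Plus mRNA-Seq libraries. The authors deposited 1 table of whole-number counts for 11959 genes, already filtered for low expression, in 29 samples. It is named as normalized, but the counts are unscaled, and totals run from 16320275 to 24037170. The submitters' processing notes name STAR 2.7.2a, edgeR 3.26.8 and GRCm38. The counting program and its strand setting are not given in the sources used here.

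Counts were analysed in R 4.3.3 with edgeR 4.0.16: TMM factors, 1 design with 8 groups, quasi-likelihood tests of C70 against vehicle per day, of vehicle days against day 0, and of changes in the C70 effect between days, with Benjamini-Hochberg adjustment over all genes. The code was tested on simulated data. Symbols came from the GENCODE M21 annotation. Replicates of every group differed by more than counting noise. Every one of the 42 genes could be named. Values in every sample were given for 10 of them by choice (Nfe2l2, Keap1, Nqo1, Hmox1, Gclc, Gclm, Gsr, Srxn1, Txnrd1 and Cat) and for the 3 largest rises and falls per day and in vehicle at day 7. Of the other lists, some of the DEGs with the largest changes were named. Those not described above include Hagh, lower with C70 at day 7 at -0.56 (adjusted P = 1.19e-07). Another is Aox1, higher with C70 at day 0 at 0.35 (adjusted P = 0.0129). The genes and lists were chosen with earlier results of these data known.

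Alternatives were DESeq2 1.42.0, limma 3.58.1 with quantile or TMM scaling or sample weights, a stricter filter, other thresholds, smaller fits, a replicate block and each sample left out. Python 3.11.15, pandas 2.3.3 and matplotlib 3.10.9 were used for sequences and figures. Overlapping genes on the other strand (among them Gss with Acss2, Gsto1 and Gsto2 with Cfap43, Gpx8 with Cdc20b, Sod1 with Scaf4, Gstz1 with Pomt2) and on the same strand (Mgst2 and Gstt3 with unnamed models), pseudogenes and mu-class paralogs could share reads with the genes described.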

Additional observations from a re-analysis of the deposited data

Results flagged for a closer look

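In groups of 4 samples, the highest or lowest sample was set against the nearest of the other 3 by its gap over the whole range. Of 215 such groups of values 20 held a sample that stood apart, where chance alone would give 10.8, and 10 of the 20 concerned day 7 vehicle replicate 1. In that sample 10 genes were far above the other 3 vehicle samples. Sod1 was at 1082 CPM against 839 to 856, Gpx4 at 548 against 405 to 419 and Prdx3 at 268 against 228 to 235. Prdx5 was at 267 CPM, Txn1 at 208, Gsto1 at 188, Gstp1 at 182, Gstk1 at 50.6, Gsta4 at 41.0 and Mgst2 at 9.78. Day 7 vehicle replicate 3 stood apart for its total count of 21433580 and for 2 genes, Nfe2l2 at 94.3 CPM against 89.7 to 90.4 in the other 3 and Hmox1 at 330.4 CPM against 358 to 363 in the other 3.

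The other 7 concerned 6 C70 samples. Day 0 C70 replicate 4 had 24037170 counts against 19037861 to 19854903 in the other 3, and Gss at 12.2 CPM against 12.9 to 13 in the other 3. Day 1 C70 replicate 3 had Keap1 at 56.4 CPM against 50.4 to 51.0 in the other 3. At day 2, C70 replicate 4 had Gsr at 65.1 CPM against 68.7 to 69.3 in the other 3, replicate 2 had Gsto2 at 1.29 CPM against 1.92 to 1.98 in the other 3, and replicate 1 had Gstz1 at 47.4 CPM against 52.5 to 53.3 in the other 3. Day 7 C70 replicate 2 had Gstz1 at 749 CPM against 642 to 652 in the other 3.

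The C70 effect differed between neighbouring time points for 38 of 126 gene and interval pairs, by edgeR's quasi-likelihood test of the difference at an adjusted P value under 0.05. All values are differences between log2 fold changes. From day 0 to day 1 the effect moved up for Gstt3 by 1.05, Gsta4 by 0.88, Nqo1 by 0.60, Gstm1 by 0.46, Gstm2 by 0.40, Mgst1 by 0.37, Hmox1 by 0.33 and Gsto1 by 0.26. It moved down over the same interval for Txnrd2 by -0.72, Sod1 by -0.38, Gclm by -0.27 and Prdx3 by -0.24. From day 1 to day 2 it moved up for Gstm2 by 0.71, Gpx1 by 0.36 and Cat by 0.20, and down for Mgst2 by -1.60, Gsto2 by -0.998, Gstz1 by -0.56, Sod1 by -0.33 and Gsr by -0.25. From day 2 to day 7 it moved up for Gpx8 by 1.00, Gstz1 by 0.85, G6pdx by 0.39, Sod1 by 0.31, Prdx4 by 0.31 and Prdx3 by 0.30. It moved down over that interval for Gstm2 by -0.93, Hmox1 by -0.76, Mgst2 by -0.73, Gpx1 by -0.73, Gclc by -0.51, Gstm1 by -0.50, Gsta4 by -0.37, Txnrd1 by -0.34, Nfe2l2 by -0.30, Srxn1 by -0.27, Sod2 by -0.20 and Pgd by -0.16. Cat, Gpx1, Gsr and Gsto2 from day 1 to day 2, and Gclm and Prdx3 from day 0 to day 1, did not pass once single samples were left out. The other intervals that lost the call without 1 sample were Gstm2 and Gsto1 from day 0 to day 1 and Pgd and Prdx4 from day 2 to day 7.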

How the results depend on the processing

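For C70 against vehicle, 34 of the 38 DEG calls among the 42 genes were kept under every one of the 36 other fits that gave a value (35 for Gsto2, Gstt3, Mgst2 and Txnrd2, which the stricter filter removes), 4 were lost under some (Gpx4 at day 7, Gss and Txnrd2 at day 1, Gstk1 at day 2) and 8 uncalled values were called under some. In vehicle over time 94 of 98 were kept, and no called value changed sign in either set. Of the other fits, 29 left out 1 sample each, and most of these samples were outside the 2 groups compared. Such a sample can act only through the scaling and spread shared by the fit, so calls kept under those fits say little about stability. The counts of DEGs moved most with the thresholds. By adjusted P alone they were 13, 25, 23 and 23 at days 0, 1, 2 and 7 in place of 6, 10, 12 and 10, beside the shares of all genes given above. With a fold change over 1.5 they were 2, 5, 7 and 4. The share of all genes over 1.5 was not computed, so these counts cannot be set against it. Leaving out the lowest 0.25 of genes by mean CPM, which removes members too, gave 5 at day 1 and 6 at day 7. Changes in the C70 effect from day 0 to day 1 numbered 22 with only the groups compared in the fit and 20 with sample quality weights, in place of 12, and from day 1 to day 2 they numbered 13 with only those groups, in place of 8. The cause was not tested. The longer motif was found in 2 promoters in place of 10.

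Leaving out 1 sample at a time gave 6 to 8, 8 to 11, 11 to 15 and 9 to 10 DEGs after C70, 26 to 28, 35 to 36 and 34 to 35 in vehicle over time, and 9 to 19, 6 to 11 and 16 to 23 changes in effect, where 19 came without day 7 vehicle replicate 1 and 9 without day 1 vehicle replicate 2. Gstk1 at day 2 was also lost without day 2 vehicle replicate 1 and C70 replicates 1, 3 and 4, at an adjusted P of 0.0545 to 0.0837. Gpx4 at day 7 was lost without C70 replicate 4 as well, at -0.31 (adjusted P = 0.000581), and Gss at day 1 without C70 replicate 4, at -0.32 (adjusted P = 0.000466). In vehicle, Gstp1 at day 1, Txnrd2 at day 2 and Gpx1 at day 7 lost their calls without single samples. Samples of the same number did not deviate together (correlations of -0.20 to 0.21), so the numbers were not read as pairs. With the replicate block the counts were 8, 10, 12 and 10 after C70, 27, 36 and 35 in vehicle, and 12, 8 and 19 for changes in effect. The lowest counts were those of Gsto2, Gstt3 and Mgst2, which limits the precision of their values.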

Other observations

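Among the other thiol genes, the sestrins and Txnip were looked at more closely, and they were chosen after their values were seen. Sesn1, a sestrin that is known as a target of p53 and FOXO factors, was at 42.8, 35.9, 38.4 and 38.0 in vehicle and 57.6, 52.5, 56.4 and 54.5 CPM with C70 at day 7, above vehicle in every C70 sample, with a log2 fold change of 0.51 (SE 0.05, adjusted P = 1.42e-09) after 0.40 (SE 0.052, adjusted P = 1.67e-07) at day 2. Sesn3 was at 0.40 (SE 0.078, adjusted P = 8.62e-05) at day 2 and 0.55 (SE 0.076, adjusted P = 7.85e-07) at day 7. Sesn2 differed from them in its days. It was at 0.39 (SE 0.08, adjusted P = 0.000215) at day 1 and -0.082 (SE 0.08, adjusted P = 0.412) at day 2. At day 7 its samples overlapped, at 23.8, 26.5, 26.2 and 25.8 in vehicle and 33.0, 33.5, 38.2 and 23.9 CPM with C70, with 0.33 (SE 0.082, adjusted P = 0.00194), or 0.30 (adjusted P = 0.00461) and under the fold threshold without vehicle replicate 1. Txnip, which binds and inhibits thioredoxin, was at 369.5, 346 and 366 in vehicle and 583, 566, 555 and 585 CPM with C70 at day 1. At day 7 it was at 334, 334, 316 and 425 in vehicle and 556, 486, 477 and 667 CPM with C70. Its C70 samples were above vehicle at days 1, 2 and 7, with 0.67 (SE 0.087, adjusted P = 2.94e-07), 0.72 (SE 0.088, adjusted P = 4.06e-08) and 0.63 (SE 0.08, adjusted P = 1.58e-07). The values of thioredoxin itself, Txn1, were 0.23 (SE 0.08, adjusted P = 0.0243) at day 1, with every C70 sample above vehicle, 0.14 (SE 0.08, adjusted P = 0.161) at day 2 and -0.14 (SE 0.075, adjusted P = 0.147) at day 7, the last 0.0031 (adjusted P = 0.971) without vehicle replicate 1.

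Glutaredoxin (Glrx), which removes glutathione from proteins, rose at days 1, 2 and 7, by 0.37 (SE 0.075, adjusted P = 0.000181), 0.69 (SE 0.071, adjusted P = 1.3e-09) and 0.33 (SE 0.063, adjusted P = 0.000103). The mitochondrial Glrx5 was at -0.60 (SE 0.093, adjusted P = 2.88e-06) at day 2, with every C70 sample below vehicle. The isocitrate dehydrogenases Idh1 of the cytosol and Idh2 of mitochondria, both NADPH suppliers, were on opposite sides of vehicle at day 1, with -0.35 (SE 0.039, adjusted P = 1.76e-08) and 0.35 (SE 0.062, adjusted P = 3.1e-05). At day 2 Idh2 was at 0.69 (SE 0.063, adjusted P = 1.44e-10) and Idh1 at -0.00041 (adjusted P = 0.995).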
